A study of Bos taurus with 21 samples.

Results

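The genes lowest in mid-gestation were 100 genes of bovine foetal muscle whose mean signal was higher at 110 days post conception (dpc), lower at 180 and 210 dpc, and higher again at 260 dpc, close to birth. They were chosen from 9483 genes by their stage means. For each probe the lower of the 110 and 260 dpc means less the higher of the 180 and 210 dpc means was taken as its score, the probe with the highest score stood for its gene, and the 100 genes with the highest scores were kept. The genes eligible were those with a curated RefSeq messenger RNA accession and a probe well above background on every array. Because the stage means chose the genes, their stage pattern is given here as a description with no test. Differences between breeds and between sexes were no part of the score and were tested. The stage means pool unequal numbers of the breeds and sexes, so such a difference can still shift a score.

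Each of 21 arrays was hybridized with Cy3-labelled RNA from the muscle of 1 foetus. The Blonde d'Aquitaine (BA) foetuses, of a heavily muscled French breed in which an altered myostatin gene is common, numbered 3, 2, 3 and 2 at 110, 180, 210 and 260 dpc. Those of the Charolais (CH), another beef breed of France, numbered 2, 3, 3 and 3. Of all foetuses 8 were male and 13 female, and each breed had 2 sires. The study's authors did not genotype the foetuses for the myostatin alteration. The labels name no treatment. The sample labels name the muscle Longissimus thoracis, whereas the study's methods name m. Semitendinosus. Of 14 listed skeletal muscle fibre markers, 12 had a named probe and all 12 were well above background on every array.

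Levels are log2 intensities relative to the 75th percentile of the same array, so that a probe at 0 is as bright as that percentile and a difference of 1 is 2 times the intensity. Between 29027 and 34507 probes were well above background per array. The 75th percentile itself had a median of 767 intensity units at 110 dpc, 755 at 180 dpc, 712 at 210 dpc and 589 at 260 dpc. The 6 slides were not evenly spread over the groups. Slides 1 and 3 held foetuses of 110 and 180 dpc alone, slides 2 and 4 those of 210 and 260 dpc alone, and slide 1 held no BA foetus, so that slide is in part aligned with stage and breed. Slide 6 held no foetus of 260 dpc and was alone on the last of 3 scan days. Its arrays had 75th percentiles of 932, 1083, 932 and 1174, above those of all other arrays. With slide differences removed 65 of the 100 members stayed in the list. In whole muscle, fewer cells of a type and less RNA per cell cannot be told apart.

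Foetal cattle muscle forms its fibres in successive waves, and the number of fibres is set before birth. Late gestation is known as the period in which fibres enlarge, exchange developmental for adult contractile proteins and build their energy metabolism.

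The scores of the members ran from 0.29 to 1.13, with a median of 0.41, and the median over all genes was -0.24. The highest score, of *FRMD3*, is a 2.19-fold difference between the lower of the outer stages and the higher of the middle stages, and that of *RAB23*, at rank 100, is 1.23-fold. There were 30 members with a score above 0.5. Just inside the limit lay *ACP6* at 0.30, *CETN2* at 0.29 and *RAB23* at 0.29, and just outside it *AKIRIN1* and *RRAS2*, both at 0.29, so the list has no natural edge. A score above 0 was found for 17.5% of all genes. The opposite course, with both middle stages above both outer stages, was found for 14.8% and was steeper, its highest score being 1.77 and its score at rank 100 being 0.50.

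Averaged over the members, each centred on its own mean, every foetus lay on the side of its stage. The choice on these same arrays favours this, so it is description alone. The member mean was 0.23 to 0.38 at 110 dpc, -0.39 to -0.30 at 180 dpc, -0.35 to -0.23 at 210 dpc and 0.29 to 0.45 at 260 dpc. The lowest stage was 180 dpc for 56 members and 210 dpc for 44. There were 55 members higher at 260 than at 110 dpc, beside 53.1% of all genes. The members were dim, with a median level of -1.71 against -0.68 over all genes, and noisier, with a median standard deviation within groups of 0.28 against 0.21. For 22 members the score was smaller than that standard deviation. All arrays of the outer stages were above all arrays of the middle stages for 10 members, *FRMD3*, *TPM3*, *KCNMA1*, *CKB*, *MAB21L1*, *CNKSR2*, *KRT15*, *HDGF*, *HSPB3* and *CCT5*. Over all genes the share was 0.158%, and nothing is read from the count, since the choice by stage means favours such genes.

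**Figure D1:**
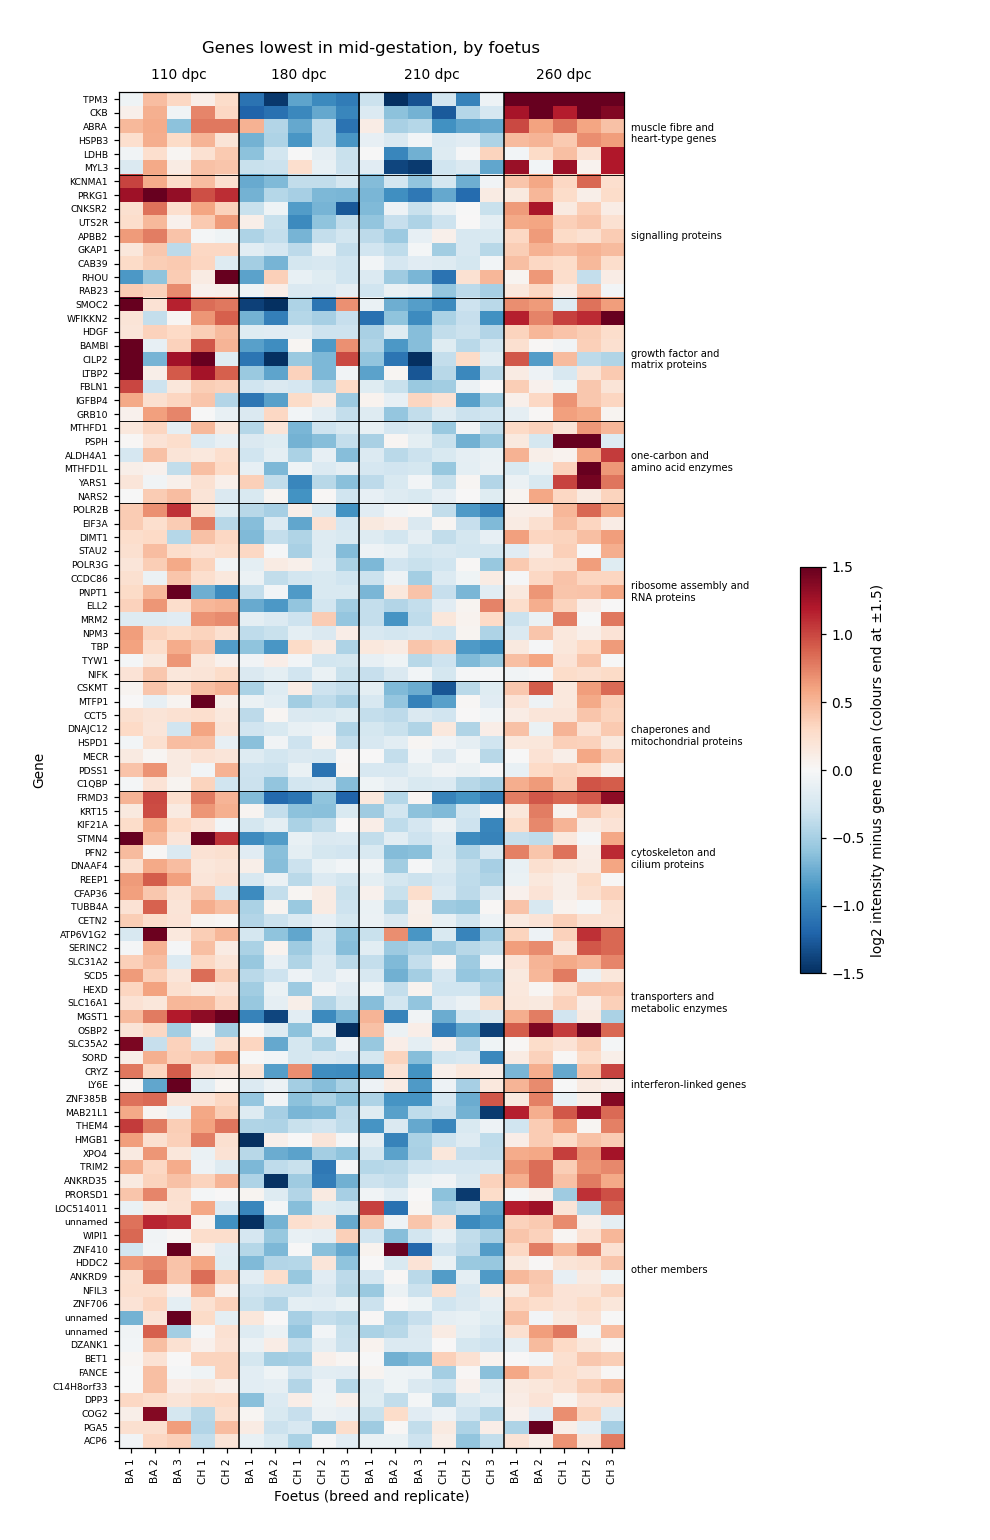
Log2 intensity of 99 of the members (rows, grouped by function) in the 21 foetuses (columns, by stage and breed), each gene less its own mean and with colours ending at 1.5 in either direction. The middle 11 columns are mostly blue, *TPM3* and *CKB* are reddest at 260 dpc, and single dark red cells at 110 dpc (*MTFP1*, *RHOU*, *LY6E*) are single foetuses.

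The muscle fibre group, formed from the gene symbols after the list was known like the other groups below, held *TPM3*, *MYL3*, *CKB*, *LDHB*, *HSPB3* and *ABRA*. All 6 ended higher at 260 than at 110 dpc. *TPM3* encodes the slow-fibre tropomyosin as well as non-muscle forms, and *MYL3* the slow and ventricular essential light chain of myosin. In BA *TPM3* had levels of 3.78, 4.31 and 4.16 at 110 dpc, 2.74 and 2.41 at 180 dpc, 3.53, 2.34 and 2.54 at 210 dpc, and 5.47 and 5.44 at 260 dpc. In CH it had levels of 3.95 and 4.13, then 3.06, 2.90 and 2.81, then 3.58, 2.85 and 3.78, and finally 5.45, 5.67 and 5.95. The 260 dpc foetuses stood well above all others, and those of 110 dpc reached down to the highest of 210 dpc, with 3.78 in each. *MYL3* ran from 2.16 to 2.94 at 110 dpc, 2.05 to 2.63 at 180 dpc, 0.94 to 2.21 at 210 dpc and 2.33 to 3.67 at 260 dpc, so that its stages overlapped.

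*HSPB3*, a small heat shock protein of muscle, had levels of 2.95, 3.24 and 2.99 in BA at 110 dpc, 1.99 and 2.24 at 180 dpc, 2.57, 2.47 and 2.66 at 210 dpc, and 3.17 and 3.21 at 260 dpc. In CH its levels were 3.21 and 2.89, then 1.83, 2.31 and 1.83, then 2.49, 2.53 and 2.24, and finally 3.09, 3.39 and 3.32. It was lowest at 180 dpc and had come part of the way back at 210 dpc in both breeds. *LDHB*, the heart-type subunit of lactate dehydrogenase, ran from 5.30 to 5.74 at 110 dpc, 4.73 to 5.34 at 180 dpc, 4.37 to 5.69 at 210 dpc and 5.31 to 6.55 at 260 dpc. Its stages overlapped, and its score was 0.43. *ABRA*, an actin-binding protein abundant in striated muscle, had a score of 1.36 in CH and 0.10 in BA.

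*CKB*, the brain-type creatine kinase, needs its probes to be seen apart. The chosen probe had levels of 1.39, 1.84 and 1.26 in BA at 110 dpc, 0.10 and 0.19 at 180 dpc, 1.10, 0.70 and 0.60 at 210 dpc, and 2.54 and 2.81 at 260 dpc. In CH it had 2.04 and 1.62, then 0.35, 0.54 and 0.33, then 0.05, 0.88 and 1.05, and finally 2.49, 2.91 and 2.70. None of the other 5 probes assigned to the gene showed a dip. A pair of them had a lower mean at every later stage, from 4.55 and 4.50 at 110 dpc to -0.77 and -0.79 at 260 dpc, and the other 3 a higher one, from 0.05, -0.22 and 1.73 to 3.72, 3.47 and 5.42. The probes therefore disagree, and the course of the gene as a whole is uncertain.

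Over all members, 73 had 125 further probes well above background, of which 98 had a score above 0, with a median of 0.21. All further probes were above 0 for 56 members and none for 12, and 27 members had a single probe. The 5 further probes of *TPM3* had scores of 0.57 to 0.94, and the single one of *SMOC2* 0.95. The 3 of *LDHB* had 0.29 to 0.35 and the one of *MYL3* 0.37. By contrast the 3 further probes of *POLR2B*, a subunit of RNA polymerase II, and of *TBP*, the TATA-binding protein, were all below 0. The chosen probe is the one with the highest score, so a lower score in the others follows from the choice in part.

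**Figure D2:**
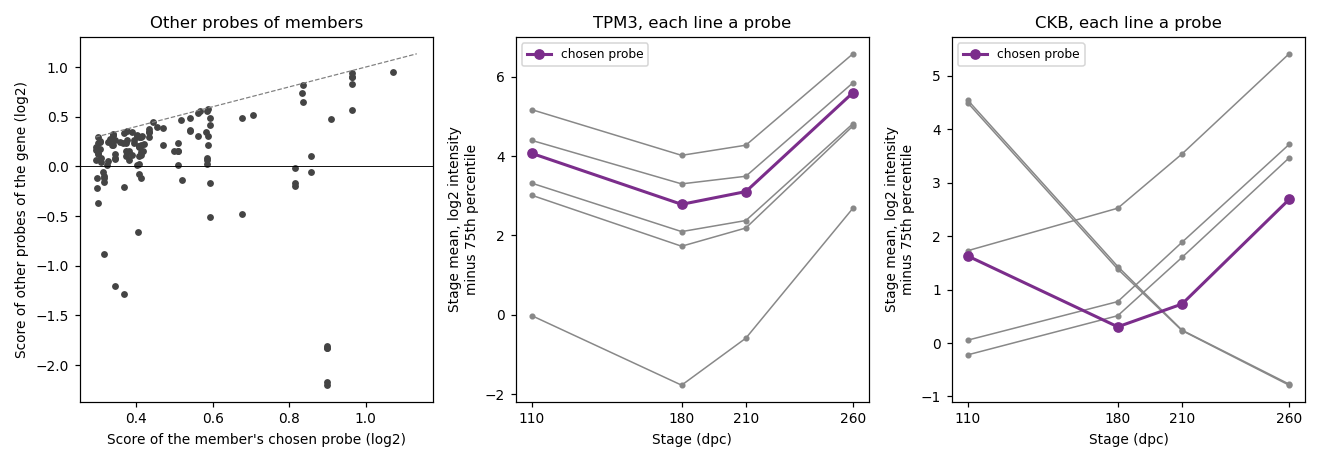
Left, score of each of 125 further probes against the score of the member's chosen probe, with a dashed line of equality. Middle and right, stage means of each probe of *TPM3* and *CKB*, in log2 intensity relative to the 75th percentile of the array; all 6 probes of *TPM3* dip, whereas only the chosen probe of *CKB* does.

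Among the signalling genes, *KCNMA1* encodes the pore subunit of the large-conductance calcium-activated potassium channel. Its levels in BA were 2.35, 1.90 and 1.62 at 110 dpc, 0.59 and 0.69 at 180 dpc, 0.70, 1.07 and 0.76 at 210 dpc, and 1.76 and 1.92 at 260 dpc. In CH they were 1.81 and 1.58, then 0.98, 0.98 and 1.08, then 1.09, 0.62 and 1.29, and finally 1.66, 2.21 and 1.59. No middle-stage foetus passed 1.29 and no outer-stage foetus was below 1.58. *PRKG1*, the cyclic GMP-dependent protein kinase, was between -0.38 and 0.16 at 110 dpc, between -2.05 and -1.78 at 180 dpc and between -2.50 and -1.22 at 210 dpc, and at -1.26 to -0.85 at 260 dpc. On this probe it came back only part of the way, and 1 CH foetus of 210 dpc overlapped with 260 dpc. A further probe of *PRKG1* scored 0.10. Another, brighter at a mean level of 1.26, scored -0.05, with means of 2.21, 0.89, 1.03 and 0.97 at the 4 stages. The late return of the gene is therefore uncertain. *GKAP1*, which anchors that kinase, *UTS2R*, the urotensin II receptor, and *CNKSR2*, a scaffold of Ras signalling, had scores of 0.42, 0.68 and 0.70. *UTS2R* had medians of -2.02, -2.79, -2.75 and -2.00 at the 4 stages. Its further probe showed no dip, with means of -0.35, -0.01, 0.13 and 0.36 and a score of -0.48, so its course is uncertain.

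*WFIKKN2* encodes a secreted protein that binds myostatin and the related GDF11 and inhibits them. Its levels in BA were -0.86, -1.41 and -1.02 at 110 dpc, -1.77 and -2.08 at 180 dpc, -2.18, -1.66 and -2.00 at 210 dpc, and 0.11 and -0.31 at 260 dpc. In CH they were -0.39 and -0.16, then -1.49, -1.56 and -1.40, then -1.53, -1.40 and -1.96, and finally -0.02, 0.07 and 0.89. It was highest at 260 dpc in both breeds, and the lowest BA foetus of 110 dpc, at -1.41, lay beside the highest of the middle stages, at -1.40. *BAMBI*, a decoy receptor for transforming growth factor beta, and *LTBP2*, a latent transforming growth factor beta binding protein of the matrix, had scores of 0.54 and 0.42.

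*SMOC2*, a secreted calcium-binding matrix protein, had levels of -0.75, -2.17 and -1.23 in BA at 110 dpc, -3.78 and -4.00 at 180 dpc, -2.49, -3.11 and -3.21 at 210 dpc, and -1.69 and -1.75 at 260 dpc. In CH they were -1.55 and -1.59, then -2.85, -3.48 and -1.70, then -3.34, -2.70 and -2.79, and finally -2.57, -1.58 and -1.76. CH replicate 3 of 180 dpc stood with the outer stages. *HDGF*, a hepatoma-derived growth factor found in the nucleus, ran from 3.60 to 3.90 at 110 dpc, 3.11 to 3.27 at 180 dpc, 2.79 to 3.24 at 210 dpc and 3.69 to 3.92 at 260 dpc. Only 3 of the 9 growth factor and matrix genes were higher at 260 than at 110 dpc. *CILP2*, a cartilage matrix protein, scored 0.52 with a standard deviation within groups of 1.26, and its BA foetuses of 110 dpc had levels of 1.86, -3.39 and -1.44. A brighter probe of *CILP2* scored -0.13, with stage means of 0.93, -0.96, -1.07 and -1.09, so the course of the gene is uncertain.

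*FRMD3*, a FERM-domain protein of the band 4.1 family at the cell membrane, had the highest score. In BA it had levels of -1.82, -1.33 and -2.07 at 110 dpc, -2.97 and -3.50 at 180 dpc, -2.17, -2.76 and -2.29 at 210 dpc, and -1.56 and -1.39 at 260 dpc. In CH it had -1.55 and -1.82, then -3.42, -2.93 and -3.53, then -3.33, -3.22 and -3.35, and finally -1.46, -1.39 and -0.98. At 210 dpc all 3 BA foetuses were above all 3 CH foetuses. Among the other cytoskeletal and cilium genes, *KIF21A*, a kinesin motor, had 4 further probes, all with a score above 0.

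**Figure D3:**
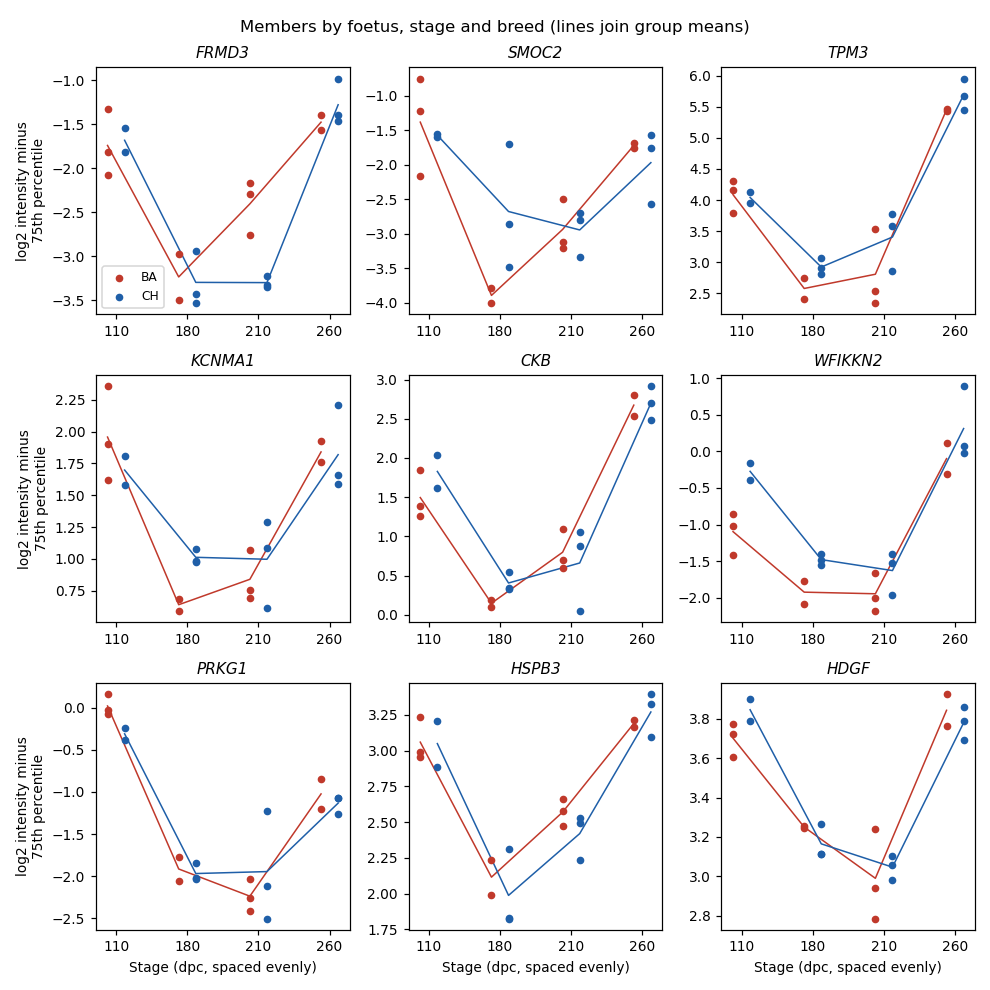
Levels of 9 members in each foetus (points; BA red, CH blue) by stage, in log2 intensity relative to the 75th percentile of the array, with lines joining the means of each breed. The 9 genes are low at 180 and 210 dpc in both breeds, *TPM3*, *CKB* and *WFIKKN2* are highest at 260 dpc, and *FRMD3* is higher in BA than in CH at 210 dpc.

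The ribosome assembly and RNA group held 13 members, among them *DIMT1*, which methylates ribosomal RNA, *NIFK* and *NPM3* of the nucleolus, and *EIF3A*, a subunit of a translation initiation factor. Their scores were 0.30 to 0.81. *NIFK* ran from -0.06 to 0.17 at 110 dpc, -0.57 to -0.34 at 180 dpc, -0.58 to -0.25 at 210 dpc and -0.29 to 0.05 at 260 dpc. The chaperone and mitochondrial group held 8 members, and all 8 had a score above 0 in both breeds. *CCT5*, a subunit of the cytosolic chaperonin, ran from 0.90 to 0.99 at 110 dpc, 0.35 to 0.77 at 180 dpc, 0.34 to 0.74 at 210 dpc and 0.85 to 1.15 at 260 dpc. *HSPD1*, the mitochondrial chaperonin, scored 0.35, and its 4 further probes 0.07 to 0.27. The transporter and metabolic group included *SCD5*, a fatty acid desaturase, at 0.52, *SLC31A2*, a copper transporter, at 0.54, and *SLC16A1*, a monocarboxylate transporter, at 0.47.

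Of the 20 members with the highest scores, several belong to no group or have less known roles in muscle. *ZNF385B*, a zinc finger protein, scored 0.84, and *MAB21L1*, a developmental regulator, 0.78. *MAB21L1* ran from -2.47 to -1.80 at 110 dpc, -3.07 to -2.58 at 180 dpc, -3.82 to -2.57 at 210 dpc and -1.84 to -1.09 at 260 dpc. *KRT15*, a keratin, ran from -1.78 to -0.92 at 110 dpc, -2.54 to -1.87 at 180 dpc, -2.56 to -1.89 at 210 dpc and -1.85 to -1.14 at 260 dpc. For both genes no middle-stage foetus reached an outer-stage one. *THEM4*, a thioesterase, scored 0.68, *SERINC2*, a membrane protein, 0.59, *CSKMT*, which methylates citrate synthase, 0.58, and *HMGB1*, a chromatin protein, 0.58. In *HMGB1* 1 BA foetus of 180 dpc was at -0.45, and the other 4 of that stage were between 1.06 and 1.28. Without that foetus its score was 0.26. Further probes of *HMGB1* scored 0.03, 0.08 and 0.07 at mean levels of 3.93, 3.90 and 3.09, and another 0.56 at 1.16. The brighter probes thus hardly returned at 260 dpc, and the course of the gene is uncertain. In all, 74 members were placed in a function group and 26 were not, 3 of them known only by their accession.

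Of all genes 1.05% were members and 17.5% had a score above 0, and the listed pathways of muscle are set beside these shares. Of 18 slow and cardiac contractile genes measured, 2 were members (*TPM3* and *MYL3*, 11.1%) and 6 had a score above 0 (33.3%). Their median score was -0.32, beside -0.24 over all genes, so most of them showed no dip. Of 26 amino acid response and synthetase genes, 1 was a member (*PSPH*, 3.85%) and 9 had a score above 0 (34.6%), with a median of -0.13. Of 28 heat shock genes, 2 were members (*HSPB3* and *HSPD1*, 7.14%) and 8 had a score above 0 (28.6%). No member came from 40 genes of oxidative phosphorylation or 14 fast contractile genes, and none of these had a score above 0. None came from 36 cell cycle genes, 28 genes of the proteasome and atrophy, or 25 immediate early and stress genes. At a share of 1.05% lists of this size would hold few members or none, so nothing is read from a list without members. A score above 0 was found for 1 (2.78%), 8 (28.6%) and 2 (8%) of these genes. Of 40 ribosomal proteins, 35 had a score above 0, with a median of 0.10, but none reached the list. With normexp background correction 34 of the 40 had a score above 0 and under median scaling 33, but under quantile normalization 9. With the authors' unscaled values there were 6, beside 3.22% of all genes. Their direction thus depends on the scaling.

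Members were rare among markers of other cell types, as among all genes, of which 1.05% were members. None of 15 endothelial, 6 erythroid, 6 adipocyte or 7 smooth muscle markers measured on every array had a score above 0. The summed level of the endothelial markers, all 15 of them well above background, was 52.3 to 65.0 at 110 dpc, 90.6 to 111 at 180 dpc, 89.8 to 115 at 210 dpc and 64.2 to 86.5 at 260 dpc, in multiples of the 75th percentile. It was thus highest where the members were lowest, and its part in their course was not tested. A score above 0 was found for 2 of 18 leukocyte markers (11.1%), 2 of 11 fibroblast markers (18.2%), 1 of 7 nerve and Schwann cell markers (14.3%) and 1 of 6 satellite cell and myoblast markers (16.7%), shares near the 17.5% of all genes. The fibroblast marker *FBLN1* was a member.

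The scores were then taken in each breed alone. In both breeds they were above 0 for 87 members, beside 7.32% of all genes, which the choice over pooled breeds again favours. *CILP2*, *ELL2*, *PNPT1*, *PGA5* and 1 gene known only by its accession had a score above 0 in BA and not in CH, where that of *CILP2* was -0.05. *STMN4*, *STAU2*, *OSBP2*, *RHOU*, *MRM2*, *YARS1* and *GRB10* had one above 0 in CH and not in BA, where that of *MRM2* was -0.03, and *TBP* in neither breed. The difference between the breeds' scores was not tested. From 110 dpc to the mean of the middle stages the members' median change was -0.60 for BA against -0.50 for CH. From there to 260 dpc the median change was 0.58 for BA against 0.61 for CH. The breeds' unequal numbers at 110, 180 and 260 dpc enter the choice and can tilt these medians. In BA 50 members were lowest at 180 dpc and 50 at 210 dpc. In CH 47 were lowest at 180 dpc and 51 at 210 dpc, with 1 lowest at 110 dpc and 1 at 260 dpc.

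In addition, 100 genes were chosen again in the same way in the arrays of 1 breed alone and tested in those of the other. The members themselves were chosen with the arrays of both breeds, so this is no test of the list. Of the 100 chosen in CH, 31 were higher at 110 dpc than in the middle stages in BA by limma at an adjusted p under 0.05, beside 12.3% of all probes, and 39 were higher at 260 dpc, beside 14.8%. Both held for 17, beside 0.49%. Of the 100 chosen in BA, 27 were higher at 110 dpc in CH, beside 9.34%, and 50 at 260 dpc, beside 22.9%, and both held for 20, beside 0.429%. With the authors' unscaled values both held for 2 and 4 genes in place of 17 and 20. These shares are over all probes, whereas each gene chosen stood by its best probe. Beside all genes, a score above 0 in BA was found for 62 of those chosen in CH, against 12.1%. In CH it was found for 62 of those chosen in BA, against 15.7%. The comparisons with 110 and with 260 dpc share the middle-stage arrays. Of each breed's 100 genes, 53 were members of the pooled list, and 32 were common to both breeds' lists. Genes for which both held, in each breed when chosen in the other, included *FRMD3*, *WFIKKN2*, *CKB*, *PRKG1*, *KCNMA1*, *TPM3*, *HSPB3*, *HDGF*, *UTS2R*, *SLC31A2* and *SCD5*. Each call is for 1 probe of the gene. Further probes of *CKB* and *UTS2R* showed no dip, and the brightest of *PRKG1* did not return at 260 dpc.

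**Figure D4:**
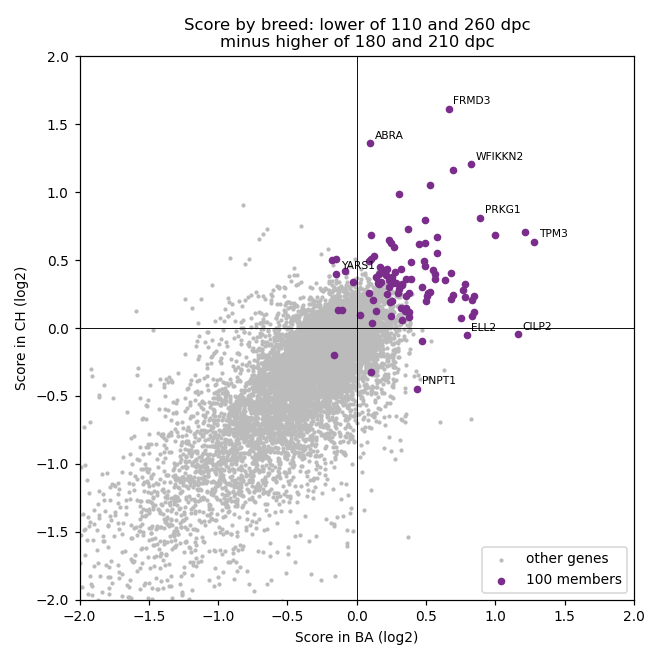
Score in CH against score in BA (log2) for the 100 members and the other genes; 253 other genes lie outside the axes. Most members lie in the upper right, *ABRA* has a score of 1.36 in CH and 0.10 in BA, and *CILP2*, *ELL2* and *PNPT1* are below 0 in CH.

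The breeds were compared at each stage, BA minus CH, over all 26328 probes well above background. At 110 dpc no member passed an adjusted p under 0.05 in limma, beside 0.224% of all probes, and 13 had an unadjusted p under 0.05, beside 13.1%. At 180 dpc none passed, beside 0.0228%, and 12 had an unadjusted p under 0.05, beside 6.1%. At 210 dpc none passed, beside 0.0114%, and 13 had such a p, beside 5.09%. At 260 dpc none passed, beside 0.0038%, and 10 had such a p, beside 5.16%. Averaged over the stages none passed, beside 0.254%, and 13 had such a p, beside 12.1%. The median breed difference of the members was 0.03, 0.02, 0.00 and -0.06 at the 4 stages. The choice from unequal numbers of the breeds can tilt these medians.

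The timing was compared by the breed difference in the fall from 110 dpc to the middle, in the rise from the middle to 260 dpc, and in the change from 180 to 210 dpc. No member passed in limma in any of them, beside 0.0038%, 0% and 0% of all probes. An unadjusted p under 0.05 was found for 10, 9 and 13 members, beside 8.42%, 4.05% and 4.33%. The breed difference in the fall was below 0, a larger fall in BA, for 60 members and above 0 for 40, whereas it was above 0 for 52.2% of all probes. Its median was -0.11 in the members and 0.01 over all probes. The difference in the late rise was below 0 for 55 members and above 0 for 45, beside 48% of all probes above 0. Its median was -0.04 beside -0.01. The choice pooled more BA than CH foetuses at 110 dpc and fewer at 180 and 260 dpc. That by itself can tilt the members between breeds, so nothing is read from these counts and medians. A p that misses the threshold does not show that the breeds keep the same timing.

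The single members with the lowest p in limma at 210 dpc and in the early fall were *FRMD3* and *APBB2*. *FRMD3* was 0.89 higher in BA than in CH at 210 dpc (SE 0.22, adjusted p = 0.38). *APBB2*, which binds the amyloid precursor protein, was 0.66 higher in BA at 110 dpc (SE 0.16, adjusted p = 0.11) and its fall differed by -0.75, being larger in BA (SE 0.19, adjusted p = 0.36). The 4 further probes of *APBB2* differed by 0.04 to 0.22 at 110 dpc. *WFIKKN2* was lower in BA on average over the stages, by a difference of -0.50 (SE 0.12, adjusted p = 0.11), and at 110 dpc by -0.82 (SE 0.25, adjusted p = 0.19), where all 3 BA foetuses were below both CH foetuses. *LDHB* differed by -0.41 on average (SE 0.14, adjusted p = 0.22), and its 3 further probes by -0.34, -0.35 and -0.38.

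In the other timing comparisons *ABRA* stood out by its fall. Its BA levels were -0.98, -0.90 and -2.08 at 110 dpc, -0.94 and -1.90 at 180 dpc and -1.35, -1.95 and -1.89 at 210 dpc, and its CH levels -0.67 and -0.67, then -2.23, -1.84 and -2.57, then -2.37, -2.26 and -2.23. The fall was thus clear of the scatter in CH and not in BA, and the breed difference in it was 1.33 (SE 0.39, limma adjusted p = 0.43). From 180 to 210 dpc *UTS2R* changed differently in the breeds by -0.83 (SE 0.24, adjusted p = 0.90) and *IGFBP4*, a binding protein of the insulin-like growth factors, by 1.36 (SE 0.40, adjusted p = 0.92). A further probe of *IGFBP4* showed no dip, with stage means of 1.59, 1.62, 1.18 and 0.34 and a score of -1.29. *OSBP2*, an oxysterol-binding protein, was 1.23 higher in BA at 210 dpc (SE 0.31, adjusted p = 0.46). *STAU2*, which carries messenger RNA, was 0.59 higher in BA at 180 dpc (SE 0.16, adjusted p = 0.54).

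The one-carbon and amino acid enzymes, grouped after the list was known, were 6 members with scores of 0.30 to 0.45. The breed difference in their late rise was below 0 in all 6, with a median of -0.62 beside -0.01 over all probes, and none of the 6 passed in limma. It was -0.34 in *MTHFD1*, -0.27 in *ALDH4A1* and -0.06 in *NARS2*. In the chaperone and mitochondrial group it was below 0 in 7 of 8, with a median of -0.09. Over all probes 48% were above 0 in this difference, and the choice from unequal numbers of the breeds can tilt it in the members. *YARS1*, the cytosolic tyrosyl-tRNA synthetase, had levels of -2.97 and -3.11 in BA at 260 dpc and -1.87, -1.45 and -2.09 in CH. The breeds did not overlap there, and all BA levels of 260 dpc were within the range of the earlier BA foetuses. The difference was -1.24 (SE 0.22, limma adjusted p = 0.14), and a further probe gave -1.06 (SE 0.21, adjusted p = 0.18). In the late rise the difference was -1.59 (SE 0.27, adjusted p = 0.41), and without CH replicate 3 of 260 dpc it was -1.73 and passed (adjusted p = 0.028), as did the difference at 260 dpc at -1.38 (adjusted p = 0.029). That comparison sets 2 BA females against 2 CH males, so that breed and sex cannot be told apart in it.

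*PSPH*, the last enzyme of serine synthesis, had levels of -3.10 and -3.51 in BA at 260 dpc and -1.63, -0.38 and -3.43 in CH. CH replicate 3, the only female of its group, stood with BA. The difference was -1.49 (SE 0.52, adjusted p = 0.76) and a further probe gave -1.57 (SE 0.57, adjusted p = 0.80). Without CH replicate 3 it was -2.30 (limma adjusted p = 0.0026), and the late rise then differed by -2.65 (adjusted p = 0.0063), again between BA females and CH males. In the females alone, which are 2 BA and 1 CH foetus at 260 dpc, the sign turned to 0.13 (adjusted p = 0.94). *MTHFD1L*, a mitochondrial folate enzyme, had levels of -2.25 and -2.12 in BA at 260 dpc and -1.68, -0.42 and -1.37 in CH, a difference of -1.03 (SE 0.27, adjusted p = 0.40). The 2 males of CH at 260 dpc are replicates 1 and 2, and no BA male was studied at that stage, so that at 260 dpc breed can be compared in females alone, where *YARS1* differed by -0.96 (limma adjusted p = 0.51) with 1 CH foetus.

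*MRM2*, which methylates mitochondrial ribosomal RNA, had the lowest adjusted p of any member on average over the stages. Its levels in BA were -3.31, -3.31 and -3.29 at 110 dpc, -3.27 and -3.33 at 180 dpc, -3.48, -4.01 and -3.50 at 210 dpc, and -3.44 and -3.22 at 260 dpc. In CH they were -2.44 and -2.41, then -3.43, -2.73 and -3.70, then -2.95, -3.06 and -2.82, and finally -2.35, -3.13 and -2.33. All CH foetuses were above all BA foetuses at 110, 210 and 260 dpc, and the breeds overlapped at 180 dpc. The average difference was -0.58 (SE 0.12, limma adjusted p = 0.060), and its 2 further probes gave -0.57 (adjusted p = 0.11) and -0.38 (adjusted p = 0.073). It passed with the slide as a random block (adjusted p = 0.048), with the sire as one (0.036), without CH replicate 3 of 180 dpc (0.040) and without CH replicate 2 of 260 dpc (0.020). In no other setting tried did it pass, whether another scaling, filter or covariate, females alone or another foetus left out.

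In some members single foetuses weighed heavily, and with 1 array per foetus the foetus and its array cannot be told apart. BA replicate 3 of 110 dpc had a *LY6E* level of -1.12 beside -3.70 and -4.50 in the other two BA foetuses, and a *PNPT1* level of 0.38 beside -1.03 and -0.83. *LY6E* is an interferon-induced membrane protein and *PNPT1* an RNA-degrading enzyme of mitochondria that interferon also induces. Without that foetus the scores were -0.02 and -0.02. The breed difference of *PNPT1* at 110 dpc was 1.66 (SE 0.36, limma adjusted p = 0.064), and without BA replicate 1 it was 1.93 and passed (adjusted p = 0.029). *MTFP1*, a protein of mitochondrial fission, had -0.64 in CH replicate 1 of 110 dpc and -3.75 in replicate 2, and its score without replicate 1 was 0.33. *RHOU*, a small GTPase, had 4.84 in CH replicate 2 of 110 dpc and 1.85 in replicate 1, and its score without replicate 2 was -0.03. A further probe of *RHOU* scored -1.21. When the remaining CH foetus of 110 dpc was the high one, limma called the breed difference of *MTFP1* (-3.22, adjusted p = 0.0001) and of *RHOU* (-3.48, adjusted p = 0.032). Each foetus was left out in turn, and 51 members stayed in the list in all 21 settings and 96 kept a score above 0, the exceptions being *PGA5*, *RHOU*, *LY6E* and *PNPT1*.

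**Figure D5:**
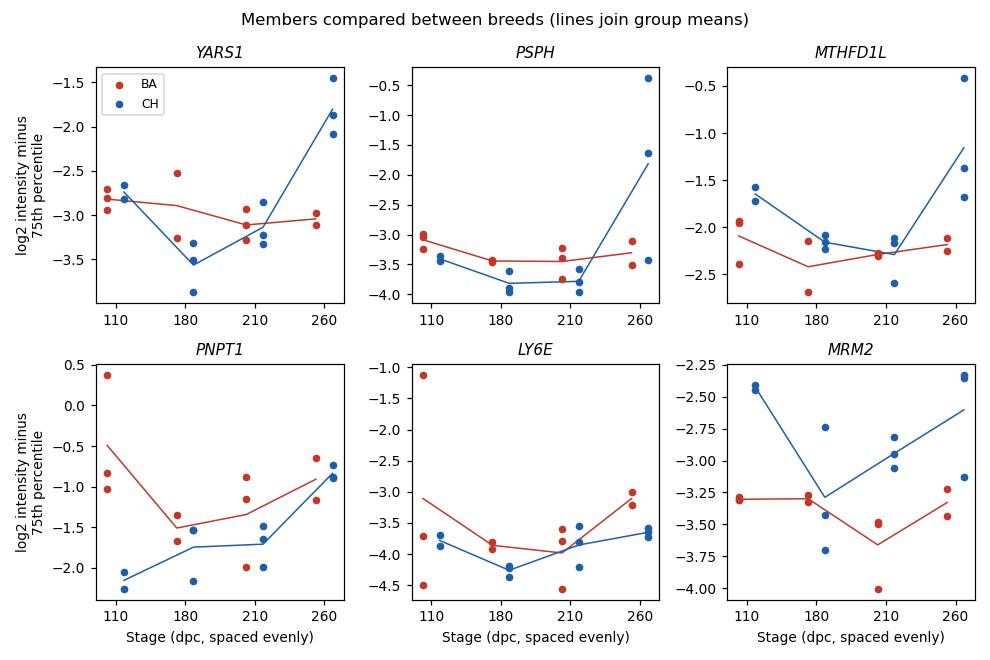
Levels of 6 members in each foetus (points; BA red, CH blue) by stage, in log2 intensity relative to the 75th percentile of the array, with lines joining breed means. At 260 dpc the CH foetuses lie above the BA foetuses in *YARS1* and *MTHFD1L*, and in *PSPH* 2 of the 3 do and the other does not stand apart from BA, 1 BA foetus stands apart in *PNPT1* and *LY6E* at 110 dpc, and *MRM2* is lower in BA at 110, 210 and 260 dpc.

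Between the sexes, with breed and stage in the model, no member passed in limma, beside 0.0494% of all probes, and 6 had an unadjusted p under 0.05, beside 8.71%. *ATP6V1G2*, a subunit of the vacuolar proton pump, had the lowest p, with males below females by a difference of -0.66 (SE 0.22, adjusted p = 0.41).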

How the data were processed

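Muscle RNA of 21 foetuses was measured on single-colour bovine arrays. The authors made the deposited intensity values with Agilent Feature Extraction 10.7, with detrending. Their methods state that arrays were normalized within and between each other. Their deposited value table, which covers probes above background, matched the log2 of the same intensity values to within 0.01 for 99.98% of its values. It is therefore called unscaled here. Control spots and 258 outlier spot values were left out, spots of a probe were averaged, log2 was taken and the 75th percentile of each array subtracted. Probes were named through RefSeq accessions, which named 97 of the 100 members, and no positions are given because the assemblies differ.

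A means model of the 8 breed and stage groups was fitted with limma 3.58.1 in R 4.3.3 over 26328 probes well above background on all arrays (residual degrees of freedom 13), with Benjamini-Hochberg adjustment and a threshold of 0.05. It was tested on simulated data. A second fit added sex. P-values measure the spread between foetuses, and the number of arrays limits their precision. The members and gene lists were chosen with earlier results of these data known. Named were the 20 members with the highest scores, listed pathway members, those with the lowest p in a comparison, and others of a function group, which were chosen after their values were seen. A motif search of promoters was planned and not run, because no promoter sequence was at hand. Some named items are not reported here.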

Additional observations from a re-analysis of the deposited data

How the results depend on the processing

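Results were recomputed with normexp (offset 50), quantile and median scaling, the authors' value table, other filters and probe choices, sex, slide, sire and replicate number in the model, females alone, a trended variance, and each foetus left out; removing slide differences was chosen after seeing the data. Of the 100 members, 83 stayed under normexp, 86 under quantile and 85 under median scaling, but 48 with the authors' unscaled table, 62 in females alone and 65 with slide differences removed; without 1 foetus 81 to 94 stayed. From 210 to 260 dpc the median of all genes shifted by 0.03 on the main scale, 0.12 under median scaling and -0.36 in the unscaled table. In those unscaled values 68 members kept a score above 0, and 2 genes chosen in CH held in BA and 4 chosen in BA held in CH. The cause was not tested.

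The count of members called for breed was 0 and rose to 1 on average over the stages with slide or sire as a random block. Without 1 foetus it was 0 to 1 at 110 dpc, 0 to 2 at 260 dpc, 0 to 1 on average, 0 to 1 in the early fall and 0 to 2 in the late rise. Besides the genes named above, *BET1* passed on average without BA replicate 1 of 210 dpc (-0.44, limma adjusted p = 0.037), and *MTFP1* passed on average (-0.87) and in the early fall (3.24) without CH replicate 2 of 110 dpc; a lone foetus is assumed to vary like the other groups. *PSPH* at 260 dpc reversed to 0.13 in females alone. With the replicate number as a block the count stayed 0; the median correlation was 0.002 over 66 same-numbered pairs of foetuses and -0.006 over 126 others, so the numbers do not pair them. For 27 differences of named genes the alternatives gave 896 values with the same direction and side of the threshold, 10 that came to pass it and 1 that reversed. Of the summary counts, 326 stayed within 1.5 times their value and 17 moved further. Signal over background limits what can be measured, and 68 members had a mean level below the 75th percentile of their arrays, beside 59.6% of all genes.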
